A study of Rattus with 6 samples.

Results

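The genes described here encode core proteins of the spliceosome: the SF3a, SF3b, U2AF and U2-specific proteins that act at the branch site and 3′ splice site, the proteins of the U5 and U4/U6 particles, the PRP19 complex and its intron-binding partners, the Sm and LSm rings, and the late-acting factors Slu7 and Cwc22. The 47 genes were taken by name from a fixed set, with earlier results of these data known, and were sorted into 10 groups by particle. All 47 were found by symbol among the 20742 genes of the deposited read count table, and all 47 passed the filter on low counts that left 12882 genes for testing. Polyadenylated RNA was sequenced from H9C2 cells, a rat cell line derived from embryonic heart, that carried a control plasmid (3 libraries) or a plasmid for overexpression of RBM25 (3 libraries). Both groups are the same cell line and both carry a plasmid, so the groups differ by the RBM25 insert as far as the labels say. The labels state no clone, culture or day for any library, so p-values refer only to the spread between libraries, and this may be technical.

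The spliceosome assembles anew on each intron. The U1 particle marks the 5′ splice site, U2AF reads the 3′ end of the intron, and U2, with its SF3a and SF3b subcomplexes, pairs with the branch site. The U4/U6.U5 particle then joins, its helicases unwind U4 from U6, and the PRP19 complex stabilises the active site. Sm proteins form a ring on the U1, U2, U4 and U5 RNAs, while the LSm ring of Lsm2 to Lsm8 sits on U6 RNA. RBM25 binds RNA and acts together with U1 when splice sites are chosen. The comparison asked whether the mRNAs of the rest of the machinery differed in level when RBM25 was raised; exon choice itself was not measured by these gene-level counts.

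Libraries held 25543849 to 33130256 counted reads. Rbm25, the overexpressed gene, was at 49.2, 44.5 and 45.7 CPM (reads per 1000000 counted reads, scaled by library) in the control libraries and at 56.3, 55.9 and 60.1 CPM in the RBM25 libraries. Its log2 fold change was 0.30 ± 0.047 (standard error, SE; edgeR's adjusted p = 0.0011), so the CPM counted for this gene rose by 23.5%. Any plasmid transcripts not counted under this gene would be missing from that figure. The call was lost without control replicate 2 (edgeR's adjusted p = 0.0842) and on FPKM values with limma-trend (adjusted p = 0.234 to 0.512). The cells expressed all 11 myoblast and muscle markers tried (summed level 6589 ± 89.2 CPM in controls and 6674 ± 48.6 CPM with RBM25, SD, n = 3), a sum led by Vim. Of 7 adult heart muscle markers matched to the table, 2 passed the count filter, and the 7 together were at 2.37 to 2.83 CPM in controls and 2.79 to 3.15 CPM with RBM25. Of 7 endothelial markers 2 passed, and the 7 summed to 104 to 109 and 101 to 103 CPM, nearly all of it Eng, while Pecam1 and Cdh5 had at most 2 reads in a group. Of 7 epithelial markers 2 passed (Krt7 and Krt8), and the 7 summed to 780 to 838 and 756 to 903 CPM, while Epcam and Cdh1 had at most 1 read in a group. Of 5 leukocyte markers listed 3 passed, and the 5 summed to 38.7 to 42.2 and 37.8 to 43.1 CPM, most of it Cd14.

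None of the 47 core spliceosome genes differed between RBM25 and control libraries at an adjusted p under 0.05 (edgeR quasi-likelihood test, Benjamini-Hochberg adjustment over all genes tested), where 0.404% of all tested genes did. The smallest adjusted p among them was 0.336, for Sf3a1. At an unadjusted p under 0.05 there were 4, against 11.2% of all tested genes. They were Sf3a1, Sf3b5 and Prpf19 with lower values, as for 4.78% of all tested genes, and Crnkl1 with higher ones, as for 6.4%. DESeq2 also called 0 of the 47, and it called 56 of all 12882 genes. At an unadjusted p under 0.05 it had 2 of the 47 and 913 of all genes. With limma-trend on the deposited FPKM values (pseudocount 1), 0 of the 47 were called and only 1 of 11196 genes. There 5 of the 47 and 1115 of all genes had an unadjusted p under 0.05. Leaving out RBM25 replicate 3 gave 1 call, Lsm5, which is described with its ring below.

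With all 6 libraries, the differences were bounded closely. The 95% interval of the fold change excluded a 1.2-fold change in either direction for 46 of the 47 genes, and for 34 it lay within 10% of the control level on either side. Crnkl1 was the exception at 1.2-fold, its interval reaching 24.7% above the control level. Lsm5 came close, at 19.7% above, and without RBM25 replicate 3 its log2 fold change was 0.21 ± 0.053 (SE). Intervals are given for the fit with all libraries only. On simulated counts for this comparison edgeR found 81.7% of the genes given a 1.2-fold change and 98.3% of those given 1.5-fold, while 23 of its 211 calls fell on genes left unaltered; the intervals may thus be somewhat too narrow. Log2 fold changes ran from -0.086 to 0.16 with a median of -0.0019, beside -0.0021 for all tested genes. Of the 47, 21 had a positive and 26 a negative fold change, where 48.8% of all tested genes had a positive one. The median size of the log2 fold change, regardless of sign, was 0.039 for the 47 genes and 0.060 for all tested genes.

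**Figure D1:**
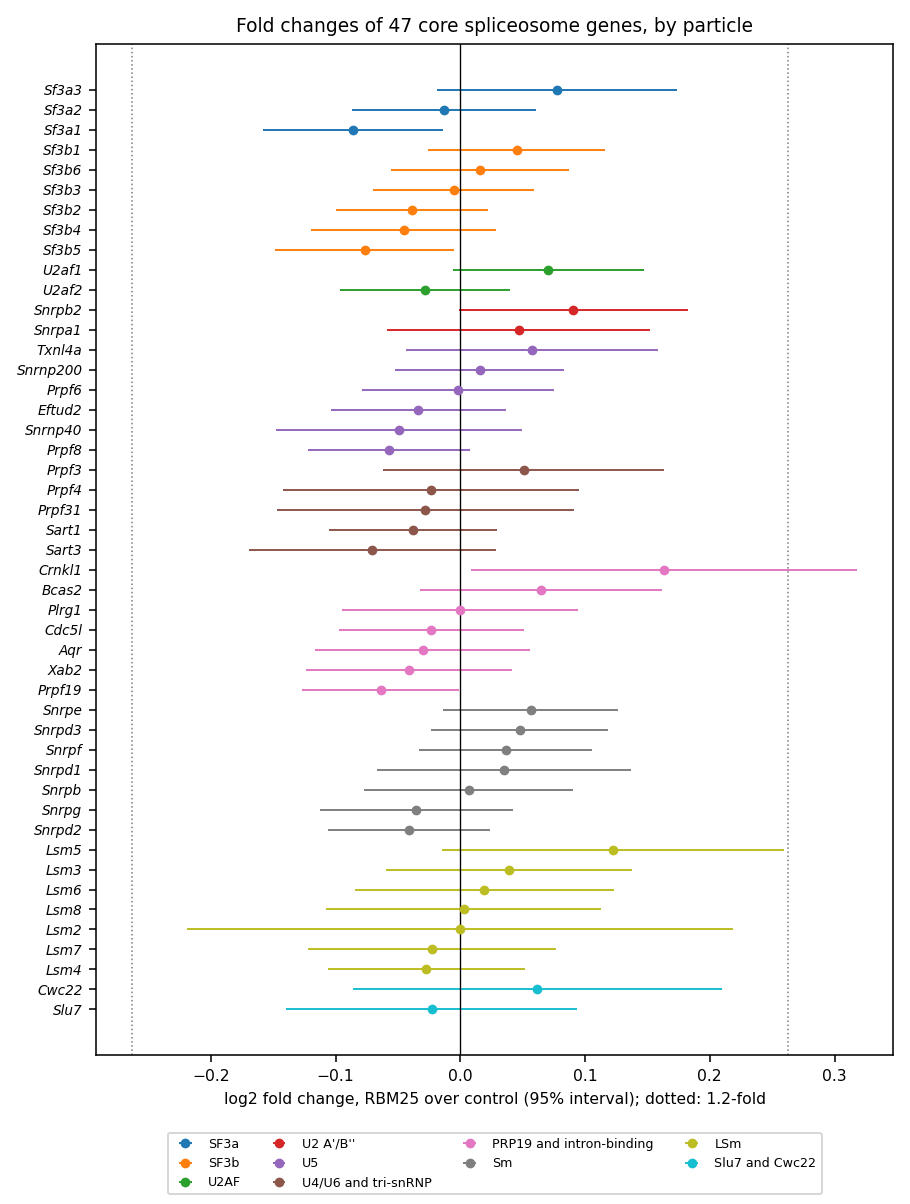
Log2 fold change of each of the 47 genes, RBM25 over control, with its 95% interval (bars), grouped and coloured by particle; dotted lines mark a 1.2-fold change. Apart from the U2-specific pair, each particle has genes on both sides of 0, and the interval of Crnkl1 alone passes a dotted line.

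By particle, the median log2 fold change was -0.013 for SF3a (3 genes), -0.022 for SF3b (6), 0.021 for U2AF (2) and 0.069 for the U2-specific proteins Snrpa1 and Snrpb2. It was -0.018 for U5 (6), -0.028 for the U4/U6 and tri-snRNP proteins (5), -0.023 for the PRP19 and intron-binding group (7), 0.035 for the Sm ring (7) and 0.0026 for the LSm ring (7). The groups' values did not overlap for 6 of the 47 genes, as for 16.2% of all tested genes: Snrpb2 was higher in each RBM25 library (8.31% of all tested genes), and Sf3a1, Sf3b2, Sf3b5, Prpf8 and Prpf19 were lower (7.94%).

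In SF3a, the subcomplex that helps hold U2 on the branch site, Sf3a1 was at 94.1, 96.0 and 94.9 CPM in the control libraries and at 90.8, 90.7 and 87.0 CPM in the RBM25 libraries. All RBM25 values lay below all control values, yet the log2 fold change of -0.086 ± 0.035 (SE) did not pass (edgeR's adjusted p = 0.336). Its partner Sf3a3 was at 66.2, 60.3 and 61.6 CPM against 68.3, 68.7 and 61.2 CPM, with the groups overlapping through RBM25 replicate 3 (0.078 ± 0.046, adjusted p = 0.565). Sf3a2 showed the smallest difference of the trio (-0.013 ± 0.036). Although the proteins work as one unit, the mRNA differences thus had both signs.

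SF3b carries the branch-site-binding subunit Sf3b1. Its mRNA was at 144, 132 and 139 CPM in controls and 142, 145 and 141 CPM with RBM25, and the RBM25 values lay within or just above the control range (log2 fold change 0.045 ± 0.034, edgeR's adjusted p = 0.665). The small subunit Sf3b5 was at 108, 110 and 104 CPM and then at 101, 102 and 102 CPM (-0.077 ± 0.035, adjusted p = 0.402). Sf3b2, which binds near the branch site, was at 376, 382 and 375 CPM and then at 370, 366 and 367 CPM. The RBM25 libraries were below the controls for both genes, and neither was called. Sf3b2 was among the steadiest genes of the set, with a coefficient of variation of 1.12% in controls and 0.453% with RBM25, and its log2 fold change was -0.039 ± 0.030 (adjusted p = 0.668). Sf3b3, Sf3b4 and Sf3b6 had log2 fold changes between -0.046 and 0.016.

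U2AF is a pair of proteins, of which U2af2 binds the polypyrimidine tract and U2af1 the AG that ends the intron. U2af1 was at 150, 146 and 139 CPM in controls and at 155, 158 and 144 CPM with RBM25 (log2 fold change 0.070 ± 0.037, edgeR's adjusted p = 0.491). RBM25 replicate 3 lay inside the control range and the other two RBM25 libraries above it. U2af2 was at 217, 211 and 222 CPM and then at 219, 210 and 208 CPM (-0.028 ± 0.033, adjusted p = 0.804). Of the proteins that bind U2 RNA itself, Snrpb2 was at 49.5, 49.7 and 47.7 CPM in controls and 49.8, 52.7 and 53.9 CPM with RBM25. The groups were apart by a narrow margin, between 49.7 and 49.8 CPM, and the difference did not pass (0.091 ± 0.045, adjusted p = 0.455). Snrpa1, the partner of Snrpb2, had overlapping groups (0.047 ± 0.050).

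In the U5 particle, Prpf8, the large scaffold of the catalytic centre, was at 171, 173 and 176 CPM in controls and at 165, 169 and 165 CPM with RBM25. The groups did not overlap, and the log2 fold change was -0.057 ± 0.032 (edgeR's adjusted p = 0.515). Snrnp200, the helicase that unwinds U4 from U6, was at 122, 121 and 126 CPM and then at 127, 122 and 123 CPM (0.015 ± 0.033, adjusted p = 0.905). The interval for Snrnp200 ran from 3.58% below to 5.95% above the control level. Txnl4a, a small thioredoxin-fold protein of U5, was at 60.0, 61.8 and 58.8 CPM and then at 65.6, 65.3 and 56.7 CPM. Its RBM25 replicate 3 was the lowest of the 6 libraries and replicates 1 and 2 the highest (0.058 ± 0.049, adjusted p = 0.709). Snrnp40, a WD-repeat protein, had a log2 fold change of -0.049 ± 0.048, and the GTPase Eftud2 and the bridging protein Prpf6 lay closer to 0 (-0.034 and -0.0019).

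Of the U4/U6 and tri-snRNP proteins, Sart3, which helps re-form U4/U6 after each round, was at 49.6, 52.0 and 51.5 CPM in controls and at 52.4, 47.1 and 46.4 CPM with RBM25. RBM25 replicate 1 was the highest of all 6 libraries and the other two RBM25 libraries the lowest (log2 fold change -0.070 ± 0.048, edgeR's adjusted p = 0.623). Sart1, needed to bring the tri-snRNP to the spliceosome, was at 120, 125 and 121 CPM and then at 120, 119 and 118 CPM (-0.038 ± 0.033, adjusted p = 0.719). Prpf3 and Prpf4, which bind each other on U4/U6, had log2 fold changes of 0.051 ± 0.055 and -0.024 ± 0.058. Prpf31, which binds the U4 RNA together with Snu13, was at -0.028 ± 0.057. No gene of this group had groups free of overlap.

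The PRP19 complex held the gene with the largest fold change of the set, though not a called one. Prpf19, a ubiquitin ligase and the name-giver of the complex, was at 406, 408 and 400 CPM in controls and at 396, 388 and 377 CPM with RBM25. All RBM25 values were lower, by a log2 fold change of -0.064 ± 0.031 (edgeR's adjusted p = 0.433). Crnkl1, a scaffold of repeated helices, was at 14.8, 13.0 and 13.2 CPM in controls and at 14.7, 15.2 and 16.0 CPM with RBM25. Control replicate 1 lay above RBM25 replicate 1, so the groups overlapped at a log2 fold change of 0.16 ± 0.075 (adjusted p = 0.407). Crnkl1 had the fewest reads of the set, down to 374 in control replicate 2. Bcas2 had a log2 fold change of 0.065 ± 0.047, and Cdc5l, Plrg1, Xab2 and the intron-binding helicase Aqr lay between -0.041 and -0.00026.

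**Figure D2:**
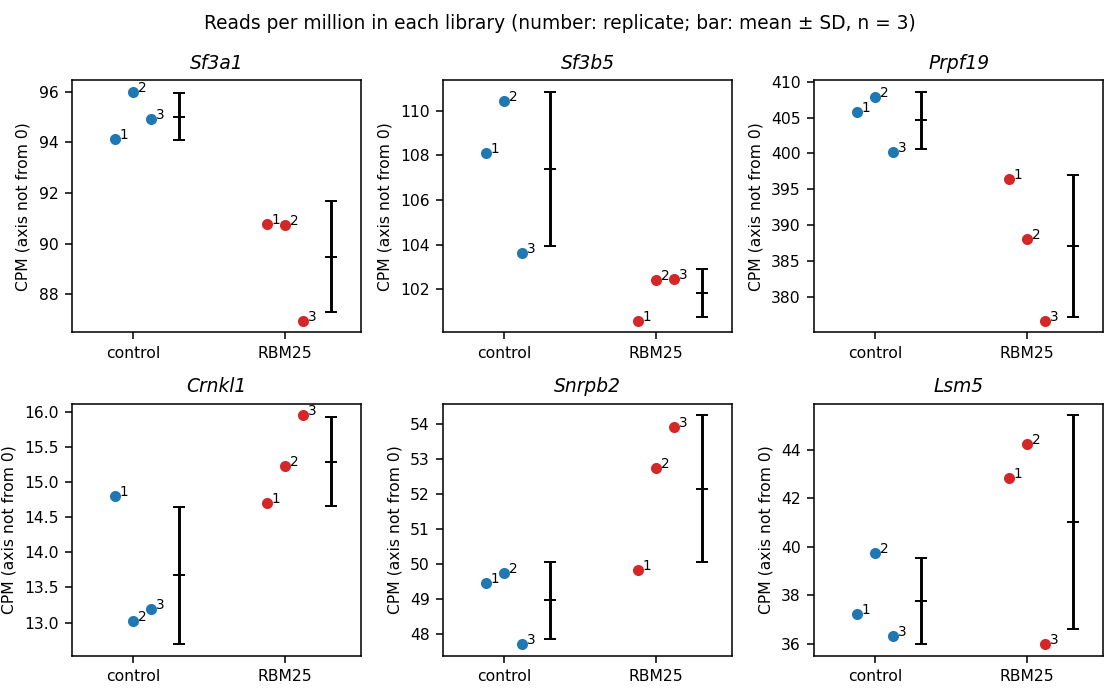
CPM of 6 genes in each library (points, numbered by replicate) with the group mean ± SD (n = 3); vertical axes do not start at 0. Sf3a1, Sf3b5 and Prpf19 have all RBM25 points below the controls and Snrpb2 all above, Crnkl1 overlaps through control replicate 1, and Lsm5 overlaps through RBM25 replicate 3, at 36.0 CPM.

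The 7 Sm genes encode the ring that all major spliceosomal snRNAs except U6 carry. Of them, 5 had a positive fold change, where 48.8% of all tested genes did. Snrpe was at 121, 121 and 118 CPM in controls and at 125, 129 and 120 CPM with RBM25 (log2 fold change 0.056 ± 0.034, edgeR's adjusted p = 0.57). Snrpd3 was at 130, 128 and 123 CPM and then at 131, 135 and 126 CPM (0.047 ± 0.035, adjusted p = 0.647). For both genes, RBM25 replicates 1 and 2 lay above every control library and replicate 3 lay within the control range. Snrpd2 was at 139, 140 and 136 CPM and then at 136, 135 and 132 CPM (-0.041 ± 0.032, adjusted p = 0.667), and Snrpg had the other negative value (-0.035 ± 0.037). Snrpb, Snrpd1 and Snrpf were between 0.0067 and 0.037. The summed level of the 7 genes came to 1034 ± 16.2 CPM in controls and 1044 ± 41.0 CPM with RBM25 (SD, n = 3), a difference within the spread.

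The LSm ring binds the 3′ end of U6 RNA, and Lsm2 to Lsm7 also take part, with Lsm1, in cytoplasmic mRNA decay. Lsm5 was at 37.2, 39.7 and 36.3 CPM in controls and at 42.8, 44.2 and 36.0 CPM with RBM25. RBM25 replicates 1 and 2 were the highest of the 6 libraries and replicate 3 the lowest, and the log2 fold change was 0.12 ± 0.065 (edgeR's adjusted p = 0.506). Without RBM25 replicate 3, Lsm5 was called higher, with a log2 fold change of 0.21 ± 0.053 (edgeR's adjusted p = 0.0152, where 2.69% of all tested genes were called). Leaving out the lowest library for this gene favoured such a call. Lsm5 was called in none of the other 12 alternatives.

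Lsm2 was at 65.9, 61.7 and 62.3 CPM in controls and at 68.5, 66.9 and 53.9 CPM with RBM25. The same split of the RBM25 libraries gave it the widest spread of the set, a coefficient of variation of 12.7% in the RBM25 group against 3.56% in controls. Its log2 fold change was -0.00016 ± 0.091, with an interval from 14.1% below to 16.3% above the control level. Lsm3 was at 63.6, 64.2 and 59.0 CPM and then at 67.2, 65.5 and 58.9 CPM (0.039 ± 0.048, adjusted p = 0.811), and Lsm8, the subunit particular to the nuclear ring, had a log2 fold change of 0.0026 ± 0.053. Lsm4, Lsm6 and Lsm7 were between -0.027 and 0.019.

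Slu7, which acts in the choice of the 3′ splice site at the second catalytic step, was at 28.8, 26.5 and 28.3 CPM in controls and at 26.4, 27.9 and 28.0 CPM with RBM25 (log2 fold change -0.023 ± 0.057, edgeR's adjusted p = 0.921). Cwc22, which links the spliceosome to the exon junction complex, was at 19.2, 17.1 and 16.3 CPM and then at 18.3, 17.4 and 19.0 CPM (0.062 ± 0.072, adjusted p = 0.8). Both genes had overlapping groups.

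RBM25 replicate 3 held the lowest value of many of these genes. It was the lowest of the 6 libraries for 25 of the 47 genes, whereas it was the lowest for 20.0% of all tested genes. In the Sm and LSm rings it was the lowest for 11 of 14 genes, among them all 7 LSm genes, and outside the rings for 14 of 33. The median log2 difference of the LSm genes from their control mean was 0.11 in RBM25 replicate 1, 0.021 in replicate 2 and -0.080 in replicate 3. For the Sm genes it was 0.050, 0.072 and -0.062 in the same order. In the control libraries these medians ran from -0.026 to 0.028 over both rings. RBM25 replicate 1 lay above that range and replicate 3 below it for both, while replicate 2 lay above it for the Sm genes and inside it for the LSm genes. Over all tested genes these medians were between -0.0017 and 0.0022 in the RBM25 libraries, and the 806 tested genes with a length under 1 kb had a median of -0.020 in RBM25 replicate 3, against -0.068 for the 11 core spliceosome genes of that length. In RBM25 replicate 3 the median was -0.060 for the 47 genes and -0.057 for 12 other U2-linked proteins. It was -0.035 for 16 other proteins of the tri-snRNP and B complex and -0.034 for 16 genes of snRNP assembly. For 33 PRP19-linked, Bact and C complex proteins and for 8 Sm-fold proteins not among the 47 it was -0.019. It was 0.10 for the 10 U1 genes and 0.060 for the 12 minor spliceosome genes. In control replicate 3 the medians were -0.025 for the 47 genes, -0.027 for the U2-linked, -0.023 for the tri-snRNP and -0.027 for the assembly genes. They were -0.0084 for the PRP19-linked and -0.049 for the Sm-fold genes.

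Without RBM25 replicate 3, the groups did not overlap for 13 of the 47 genes with higher RBM25 values and for 5 with lower ones, where 15.3% and 14.9% of all tested genes did so. The 13 were Sf3a3, U2af1, Snrpa1, Snrpb2, Txnl4a, Bcas2, Snrpb, Snrpd3, Snrpe, Snrpf, Lsm2, Lsm3 and Lsm5. Of these, 7 belong to the rings, and only Lsm5 was called. As replicate 3 was the lowest library for 25 of the 47 genes, leaving it out favoured higher RBM25 values in them. The 13 genes and the Lsm5 call are thus no separate support for a difference. The 5 with lower values were Sf3a1, Sf3b2, Sf3b5, Prpf8 and Prpf19, the same genes as with all libraries. Without RBM25 replicate 1, the counts were 2 higher and 13 lower (13.2% and 13.1% of all tested genes), so which direction prevailed depended on a single library. Some cell type markers also differed in RBM25 replicate 3. Myog, a regulator of muscle differentiation, was at 20.3, 21.2 and 22.8 CPM in controls and at 14.6, 14.9 and 25.6 CPM with RBM25. Tnnt2, a troponin of the contractile apparatus, was at 112, 105 and 101 CPM and then at 94.1, 94.6 and 137 CPM. For both, replicate 3 was the highest of the 6 libraries and the other two RBM25 libraries the lowest. The keratin Krt7 was at 813, 791 and 753 CPM and then at 877, 825 and 726 CPM, with replicate 3 the lowest. Myod1 and Krt8, of the same lists, went the opposite way in replicate 3. Myod1, listed with Myog, was at 61.5, 58.9 and 60.9 CPM and then at 68.4, 61.6 and 54.6 CPM. The keratin Krt8 was at 25.0, 28.6 and 26.5 CPM and then at 25.7, 26.6 and 29.8 CPM. Des and Vim in replicate 3 lay within the control range. Across genes at large, replicate 3 also stood further from RBM25 replicates 1 and 2 (chi-square 6.42 and 4.94 per degree of freedom) than other replicate pairs did from each other (3.29 to 3.57). The labels mark no library as different. The part of these markers, or of this wider difference, in the low values of replicate 3 was not tested.

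**Figure D3:**
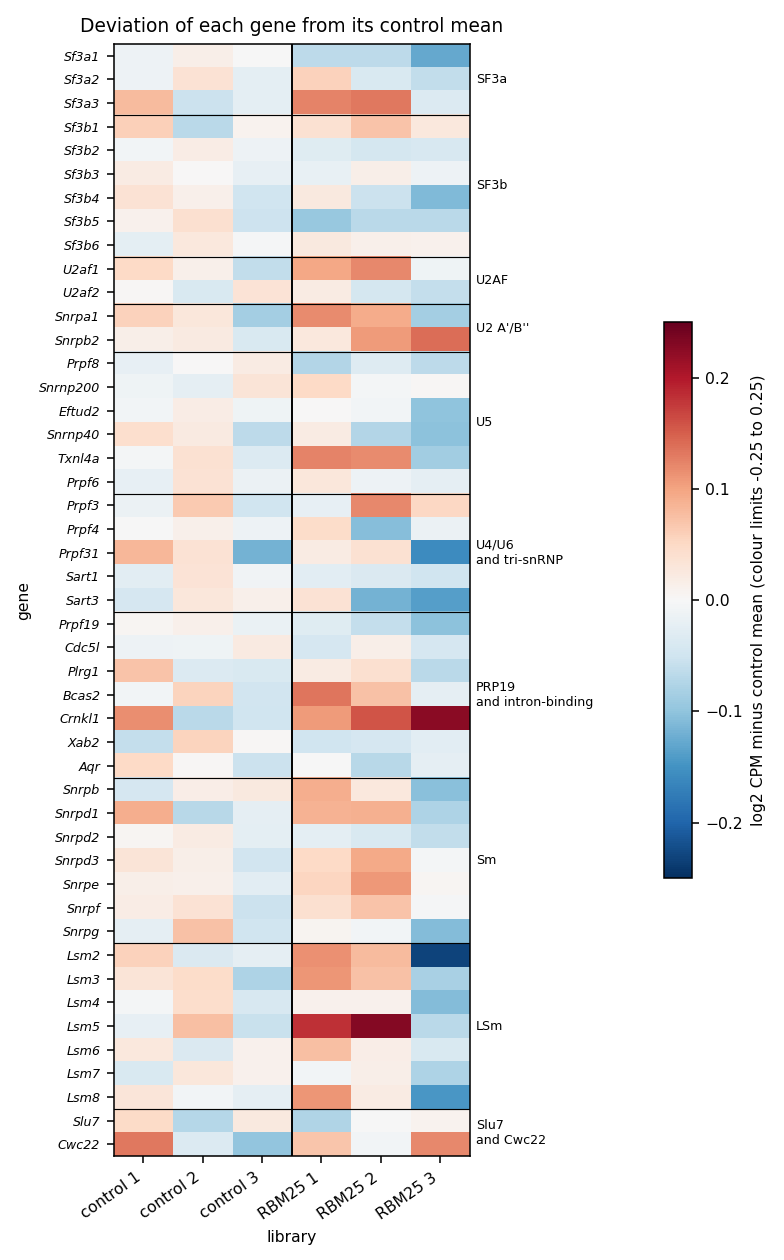
Log2 CPM of each gene minus its control mean in the 6 libraries (columns), with genes (rows) ordered by particle; red is above and blue below the control mean, and black lines part the groups and particles. The LSm rows are red or pale in RBM25 1 and 2 and blue in RBM25 3, where the Lsm2 value is -0.23.

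Levels were compared between genes on the deposited FPKM scale, which divides by gene length. In controls the Sm genes ran from 62.5 ± 1.60 FPKM for Snrpb to 291 ± 12.6 FPKM for Snrpg (SD, n = 3). Snrpe (264 ± 3.75 FPKM), Snrpd2 (237 ± 3.35 FPKM) and Snrpf (202 ± 6.23 FPKM) followed Snrpg, each further from its neighbour in this order than the sum of their SDs. Snrpd3 (104 ± 2.89 FPKM) and Snrpd1 (97.2 ± 5.66 FPKM) were not separated in this way. The proteins occur once each in a ring, whereas their control FPKM differed by 4.67-fold between Snrpg and Snrpb. On CPM, which is not divided by length, Snrpb stood above Snrpg, at 210 against 132 CPM in controls.

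Of the 7 LSm genes, 6 were at 52.3 to 81.1 FPKM, below all Sm genes other than Snrpb, while Lsm6 stood at 8.20 ± 0.197 FPKM, 9.89-fold under Lsm3. Lsm6 had 35.2 to 36.8 CPM in controls, close to Lsm5 (36.3 to 39.7 CPM) and Lsm7 (38.5 to 40.3 CPM). The length that the deposited values imply, CPM divided by FPKM, was 4.40 kb for Lsm6 against 0.583 kb for Lsm5 and 0.577 kb for Lsm7. Its low FPKM thus goes with the length given to the gene. The same holds for Snrpb, whose implied length of 3.36 kb was the longest of the Sm genes. The sources used here do not say how the authors set gene length.

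Among the U2 proteins, Sf3b5 (139 ± 4.25 FPKM), U2af1 (131 ± 5.0 FPKM), Sf3b6 (119 ± 2.02 FPKM) and Sf3b2 (108 ± 1.04 FPKM) were the most abundant. Sf3a1 (17.5 ± 0.160 FPKM) and Sf3b1 (19.8 ± 0.884 FPKM) were the least. Sf3b2 was 5.45-fold above Sf3b1, and U2af1 was 2.27-fold above U2af2. In U5, Txnl4a stood at 75.7 ± 1.80 FPKM and the other 5 genes at 16.7 to 25.4 FPKM, Snrnp200 being the lowest. Of the U4/U6 and tri-snRNP genes, Sart1 (44.5 ± 0.930 FPKM) was the highest and Prpf4 (9.08 ± 0.0611 FPKM) the lowest. In the PRP19 group the span was the widest, from 169 ± 1.38 FPKM for Prpf19 to 5.43 ± 0.387 FPKM for Crnkl1, a ratio of 31.1. Slu7 and Cwc22 were at 8.47 ± 0.378 and 4.85 ± 0.407 FPKM.

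Placed among all tested genes by control FPKM, 45 of the 47 were above the median gene. The 47 genes took 0.485 ± 0.00487% of counted reads in controls and 0.484 ± 0.00991% with RBM25 (SD, n = 3). Replicates of the core genes were tighter than those of genes at large: the median coefficient of variation in controls was 2.90% for the 47 and 4.64% for all tested genes, and in the RBM25 group 3.95% and 5.06%. The part of abundance in this was not tested.

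**Figure D4:**
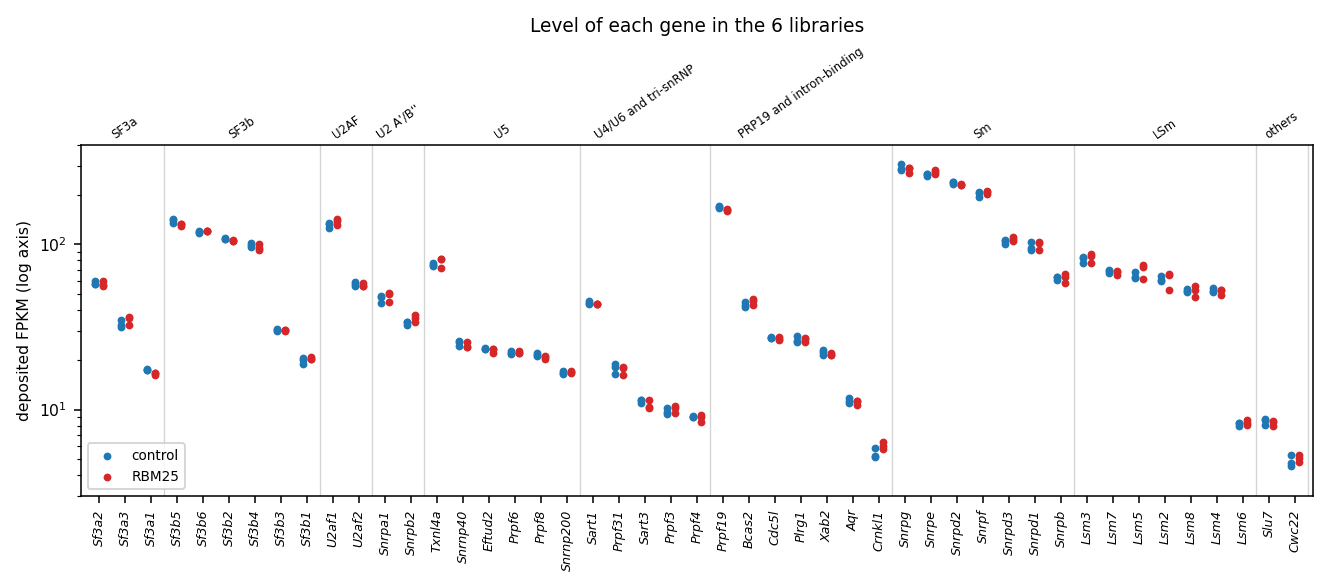
Deposited FPKM of each gene (log axis) in the 3 control libraries (blue) and the 3 RBM25 libraries (red), ordered by level within each particle. Red and blue points of a gene lie close together, while genes range from 4.85 FPKM (Cwc22, control mean) to 291 FPKM (Snrpg, control mean).

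Other spliceosome proteins were looked at through lists chosen by function. Further major spliceosome proteins came in 3 lists, with 12 linked to U2 and 16 of the tri-snRNP and B complex. The last list held 33 proteins of the PRP19-linked, Bact and C complexes. None of these 61 genes was called by edgeR, where 0.404% of all tested genes were. Their median log2 fold change was -0.0077. At an unadjusted p under 0.05 there was 1, against 11.2% of all tested genes. That gene was Prpf4b, a kinase of the tri-snRNP, at 27.1, 25.3 and 28.0 CPM in controls and 30.5, 31.0 and 29.3 CPM with RBM25 (log2 fold change 0.18 ± 0.057, edgeR's adjusted p = 0.191). The smallest p of the U2-linked list belonged to Htatsf1 (0.097 ± 0.047, adjusted p = 0.453), a partner of SF3b, and that of the PRP19-linked list to Isy1 (-0.091 ± 0.046, adjusted p = 0.473). In each of these genes, picked by p, the groups did not overlap. Over the 61 genes this held for 3 with higher and 4 with lower RBM25 values. The shares of all tested genes were 8.31% and 7.94%.

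Of 12 proteins of the minor spliceosome, which removes a rare class of introns, none was called, where 0.404% of all tested genes were. Positive values were found for 9, where 48.8% of all tested genes had them. The median log2 fold change was 0.061, beside -0.0021 for all tested genes. The lowest value was that of Snrnp25 (-0.14 ± 0.072, edgeR's adjusted p = 0.47), with all RBM25 values below the controls. Snrnp48 came closest to a call, with 14.6 ± 1.02 CPM in controls and 16.7 ± 0.469 CPM with RBM25 (log2 fold change 0.19 ± 0.072, edgeR's adjusted p = 0.301). Among 16 genes of snRNP assembly, such as the SMN complex that loads Sm rings, none was called (0.404% of all tested genes). Their median was 0.0055, and the smallest p was that of Ddx20 (0.13 ± 0.066, edgeR's adjusted p = 0.472). Of 8 Sm-fold proteins not among the 47, Snrpn included, the smallest p was that of Naa38 (-0.096 ± 0.060, adjusted p = 0.593).

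The U1 particle, where RBM25 works, gave the only call among these lists. Luc7l3, a U1-associated protein, rose from 64.6, 58.9 and 61.8 CPM to 72.5, 76.8 and 75.8 CPM (log2 fold change 0.28 ± 0.041, edgeR's adjusted p = 6.55e-04). The call was lost without control replicate 2 (edgeR's adjusted p = 0.061) and on FPKM values with limma-trend (adjusted p = 0.226 to 0.399). Of the 10 U1 genes tested, 4 had an unadjusted p under 0.05, all with higher values, where 11.2% of all tested genes passed in either direction and 6.4% with higher values, and the median log2 fold change was 0.077, beside -0.0019 for the 47 genes of the other particles. The U1-specific proteins themselves, Snrnp70, Snrpa and Snrpc, had log2 fold changes of -0.013, -0.037 and -0.037, in the range of the core genes. The difference between the U1 list and the other particles was not tested.

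Near copies of some genes are listed in the table, and reads could be shared with them in counting. Snrpn, whose protein is nearly the same as that of Snrpb, had 19004 reads over the 6 libraries, or 50.6% of the reads of Snrpb. U2af1l4, related to U2af1, had 3411 reads (12.9% of U2af1), and Txnl4b, related to Txnl4a, had 3209 (29.3% of Txnl4a). A copy of Cwc22 had 434 reads (13.7% of Cwc22), so the values of Cwc22 are uncertain to that extent. Copies of Snrpe, Snrpg, Lsm7, Snrpd2, Lsm5 and Snrpf each had at most 1.31% of the reads of the gene itself. The sources used here do not say whether counting used the strand, so overlapping genes on opposite strands remain uncertain.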

How the data were processed

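Read counts per gene were deposited by the authors as whole numbers, not normalized; the FPKM values were also made by the authors and deposited rounded to 2 decimals. The submitters' processing notes name HISAT2, DESeq2 and mRatBN7.2, a rat genome build; the sources used here give no version, counting program, annotation or strand setting. Per the labels' protocols, poly(A) RNA was made into strand-marked libraries.

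edgeR 4.0.16 (R 4.3.3) tested the counts: filterByExpr (minimum count 10, 12882 genes), TMM factors (0.996 to 1.01), robust quasi-likelihood F-tests with group as the only term, and Benjamini-Hochberg adjustment over all genes, called under 0.05. SE is the size of the log2 fold change divided by the square root of F, and 95% intervals use edgeR's total degrees of freedom. CPM are scaled by TMM. Alternatives used DESeq2 1.42.0 and limma 3.58.1 on log2(FPKM + pseudocount) with a mean FPKM of at least 0.5; fold changes on that scale understate low genes.

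Named in depth were, per particle, called genes, the 3 smallest p and the highest and lowest FPKM; per other list, called genes or the smallest p. Further members are named because every member is accounted for. Members and lists were chosen with earlier results of these data known. Of 148 list symbols, 144 matched. The test was tried on simulated counts for the 12882 genes. Replicate pairs differed beyond sampling noise (chi-square per degree of freedom 6.42 and 4.94 for RBM25 replicate 3 against replicates 1 and 2, and 3.29 to 3.57 for the other pairs).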

Additional observations from a re-analysis of the deposited data

How the results depend on the processing

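The number of core spliceosome genes called was 0 under all 7 alternatives that kept every library, and 0 to 1 when single libraries were left out. Called genes over the whole table numbered 52, against 205 with no filter on low counts, 1 and 3 with limma-trend on FPKM at pseudocounts of 1 and 0.1, 5 with limma-trend on FPKM and no filter, and 5 to 352 without single libraries. Rbm25 was no longer called on FPKM values (log2 fold change 0.28 and 0.30 at pseudocounts of 1 and 0.1, and 0.28 with no filter) and lay between 0.27 and 0.35 without single libraries. The cause of these shifts was not tested.

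With the replicate number as a block, 436 genes were called over the whole table and 0 of the 47. Same-numbered libraries did not deviate together (correlations 0.054, -0.067 and -0.0059), so the numbers are not taken to pair the libraries.

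Without single libraries, median log2 fold changes ran from -0.048 to 0.0098 for SF3a, 0.0043 to 0.048 for U2AF, -0.031 to 0.0028 for U5, 0.0096 to 0.058 for Sm and -0.027 to 0.068 for LSm. Non-overlapping genes of the 47 with higher values numbered 1 to 13, where the share of all tested genes was 12.1% to 15.3%. Those with lower values numbered 5 to 13, where it was 12.0% to 14.9%. Of 32 genes given in depth, 25 kept their sign in every alternative. The others, none of them called, changed sign only without single libraries: Sf3a2 (-0.048 to 0.0098), Prpf4 (-0.059 to 0.019), Snrpb (-0.035 to 0.058), Snrpg (-0.059 to 0.0032), Lsm4 (-0.046 to 0.011), Lsm6 (-0.0080 to 0.046) and Slu7 (-0.057 to 0.0064). SEs were widest for Lsm2 (0.091), Crnkl1 (0.075) and Cwc22 (0.072), the last 2 having the fewest reads; counting error and spread between libraries were not separated.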
